A study of Mus musculus with 21 samples.

Results

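The proteasome is the chambered protease that degrades ubiquitin-tagged proteins. Its genes were followed here in cultured mouse cortical neurons through every row of the deposited expression tables whose symbol is Psm, then a letter from a to g, then a number. The rule found 48 genes among the 22040 listed in at least 1 table, and 46 of them were listed in all 4 tables, as were 19399 genes altogether. The RNA came from 21 cultures of primary cortical neurons of newborn mice, in the groups Tau DMSO (n = 5), Tau AdipoRon (n = 5), WT DMSO (n = 5) and WT AdipoRon (n = 6). Tau neurons carried human tau cDNA with the P301S mutation, driven by the prion promoter, and had been seeded with 3 µg/mL of pre-formed fibrils on day 7 and kept for 18 days more. No source used here states that WT neurons were seeded. All cultures had received 1 µM cytosine arabinoside against dividing glia, and all were exposed for 24 h either to 10 µM AdipoRon, a small-molecule agonist of the adiponectin receptors, or to its vehicle DMSO. The dose is that of the sample tags and the paper, while the treatment protocol in the labels gives it as 10 mM. Animals contributed samples to both treatments, according to the reporting summary, and the sex of the animals is not given.

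The core particle of the proteasome stacks rings of alpha subunits, which gate the entrance, on rings of beta subunits, which hold the catalytic sites. A regulatory particle caps the core. Its base unfolds substrates with a ring of ATPases and its lid removes ubiquitin. Interferon signalling is known to replace the catalytic beta subunits with those of the immunoproteasome, whose peptide products are loaded on MHC class I, and to raise the activator made of Psme1 and Psme2. Dedicated chaperones assemble both particles.

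Each table gives a single mean level per gene, log2 CPM (counts scaled to library size), pooled by the authors over both groups that the table compares. The pools overlap in their cultures. The DMSO pool holds the 10 DMSO cultures of both genotypes, the AdipoRon pool the 11 AdipoRon cultures, the Tau pool the 10 Tau cultures of both treatments and the WT pool the 11 WT cultures. Except under Other observations, only pools with no culture in common were set against each other. That leaves AdipoRon minus DMSO, averaged over the genotypes, and Tau minus WT, averaged over the treatments. A gene is called higher or lower here when pools differ by more than 0.2 on the log2 scale. No value carries a replicate error, so no difference below was tested. Both differences are built from the same 21 cultures and are not independent. A gene that stood above the rest in WT AdipoRon cultures alone would come out higher in the AdipoRon pool and lower in the Tau pool. The pools do not give the level of any of the 4 groups by itself, so which group carries a difference cannot be settled. The difference between Tau AdipoRon and WT DMSO can be recovered and is given under Other observations. The tables were normalized separately. Weighted by the numbers of cultures, the DMSO and AdipoRon pools added up to the Tau and WT pools with a log2 ratio of -0.00086 ± 0.0049 (mean ± SD over 19399 genes). Both sums hold the same 21 cultures, so this ratio does not measure the error of a pool difference.

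The cultures held other cells besides neurons, and the level of these differed between pools. The neuronal gene Snap25 was at log2 CPM 9.81 to 10.11 over the pools, while the astrocyte gene Gfap was at 10.70 to 11.04. The 10 microglial genes were listed in every pool, with P2ry12 at 1.38 to 1.80 and Aif1 at 1.13 to 2.54 the lowest of them, and their summed level was 318.1 CPM in the Tau pool against 630.2 CPM in the WT pool. All 10 were lower in the Tau pool, with a median difference of -1.01. Their summed level was 436.3 CPM in the DMSO pool and 528.6 CPM in the AdipoRon pool, with 7 higher and 2 lower. Of 8 neuronal genes, 4 were lower and none higher with AdipoRon (median -0.18), and 2 were higher and none lower in Tau (median 0.10). The 5 oligodendrocyte lineage genes were all lower in Tau (median -0.45), and 3 of them were lower with AdipoRon (median -0.34). Of 5 astrocyte genes, 2 were higher and 2 lower with AdipoRon, and 2 were lower in Tau. Of 4 vascular genes listed, 3 were higher with AdipoRon and 2 lower in Tau. Among these, Kdr was at log2 CPM -0.37 with DMSO and 0.20 with AdipoRon, where few reads are left. Pdgfrb lay at 0.202 with AdipoRon, just past the limit. Of all genes, 20.5% were higher and 18.3% lower with AdipoRon, and 15.8% were higher and 11.4% lower in Tau. In bulk RNA, fewer cells of a type and less RNA per cell cannot be told apart.

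Some of the members past the limit sit close together on the chromosomes. Psme1 and Psme2 lie on chromosome 14 with Emc9 as the single protein-coding gene between them, and Psmb9 and Psmb8 lie on chromosome 17 with Tap1 between them. Tap1 is the peptide transporter that feeds MHC class I and is known to share a promoter region with Psmb9. The 250 bases upstream of their RefSeq start sites (build GRCm38.p6, 5′ to 3′ on the gene's strand) are shown because these genes make up 4 of the 6 members past the limit between AdipoRon and DMSO, and the capitals in Psmb9 mark a CCAAT box on the opposite strand. Psme2 has a pair of annotated starts, and the window of the upstream one is given.
Psme1, chr14:55578244-55578493, plus strand: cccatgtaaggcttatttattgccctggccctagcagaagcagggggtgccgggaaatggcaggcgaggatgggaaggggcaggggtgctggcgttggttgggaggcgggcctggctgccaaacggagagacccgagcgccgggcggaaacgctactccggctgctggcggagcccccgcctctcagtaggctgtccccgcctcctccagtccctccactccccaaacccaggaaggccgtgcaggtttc
Psme2, chr14:55591102-55591351, minus strand: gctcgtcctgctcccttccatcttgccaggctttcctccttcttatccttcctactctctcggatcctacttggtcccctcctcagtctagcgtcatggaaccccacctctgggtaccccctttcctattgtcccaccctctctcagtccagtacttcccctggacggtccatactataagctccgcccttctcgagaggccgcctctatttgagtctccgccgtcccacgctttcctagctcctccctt
Psmb8, chr17:34197945-34198194, plus strand: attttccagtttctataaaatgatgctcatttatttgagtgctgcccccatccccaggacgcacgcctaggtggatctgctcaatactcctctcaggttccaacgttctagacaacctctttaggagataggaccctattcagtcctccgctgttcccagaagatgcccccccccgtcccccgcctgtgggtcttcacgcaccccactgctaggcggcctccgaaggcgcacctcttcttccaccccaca
Psmb9, chr17:34187331-34187580, minus strand: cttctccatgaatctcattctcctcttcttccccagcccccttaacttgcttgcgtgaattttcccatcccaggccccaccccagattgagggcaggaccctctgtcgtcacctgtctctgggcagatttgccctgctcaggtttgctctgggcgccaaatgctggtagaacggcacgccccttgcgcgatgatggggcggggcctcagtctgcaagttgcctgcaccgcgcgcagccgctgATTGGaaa

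Of the 48 genes, 40 had a RefSeq promoter window of 250 bases before to 50 bases after the start. Both strands were searched for 3 short motifs. The antioxidant response element core TGACNNNGC, which factors of the Nfe2l1 family bind and through which they are known to raise proteasome genes, was found in the windows of 6 members, 15% of the 40, against 14% of all 27025 genes with a window and 15.9% of the 16178 that a table lists. CCAAT, the box bound by NF-Y, was found in 14 members, or 35%, against 41.1% and 41.7%. The interferon-stimulated response element core, read as GAAA, any 2 bases and GAAA, was found in 5 members, or 12.5%, against 3.99% and 3.75%. These 5 were Psmb3, Psmd4, Psmd9, Psmg4 and Psme1. The windows of Psmb8, Psmb9 and Psme2 did not hold these letters, which says nothing about sites elsewhere. Stretches around the match are given for Psme1, and for the constitutive catalytic genes Psmb5 and Psmb6, with the antioxidant core in capitals in the latter pair and the interferon core, on the opposite strand, in capitals in Psme1.
Psme1, chr14:55578493-55578522, plus strand: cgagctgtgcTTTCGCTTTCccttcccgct
Psmb5, chr14:54618024-54618052, minus strand: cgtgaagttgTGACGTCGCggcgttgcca
Psmb6, chr11:70525338-70525366, plus strand: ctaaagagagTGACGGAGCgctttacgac

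Proteasome genes were abundant transcripts in these cultures. Per kilobase of the canonical transcript, and in the WT pool, 42 of the 48 members lay above the median of 15553 protein-coding genes (2.87 log2 CPM per kilobase), and 18 were among the top 10%. The base had the highest class median per kilobase, 6.07, followed by the lid at 5.66, the beta ring at 5.25, the alpha ring at 4.37, the assembly factors at 3.56, the activators and inhibitor at 3.26, and the immunoproteasome and thymoproteasome genes at 2.19. The order of neighbouring genes or classes was not tested. It also rests on the length used. Per kilobase of coding sequence the beta ring came first with a median of 6.93, ahead of the base at 6.35 and the lid and alpha ring, both at 6.22, and the activators and inhibitor at 5.31 passed the assembly factors at 4.92. Psmb1, a structural beta subunit, took place 31 of 48 by its canonical transcript of 6002 bases, with 4.02 log2 CPM per kilobase, and place 5 by its coding sequence of 720 bases, with 7.08.

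**Figure D1:**
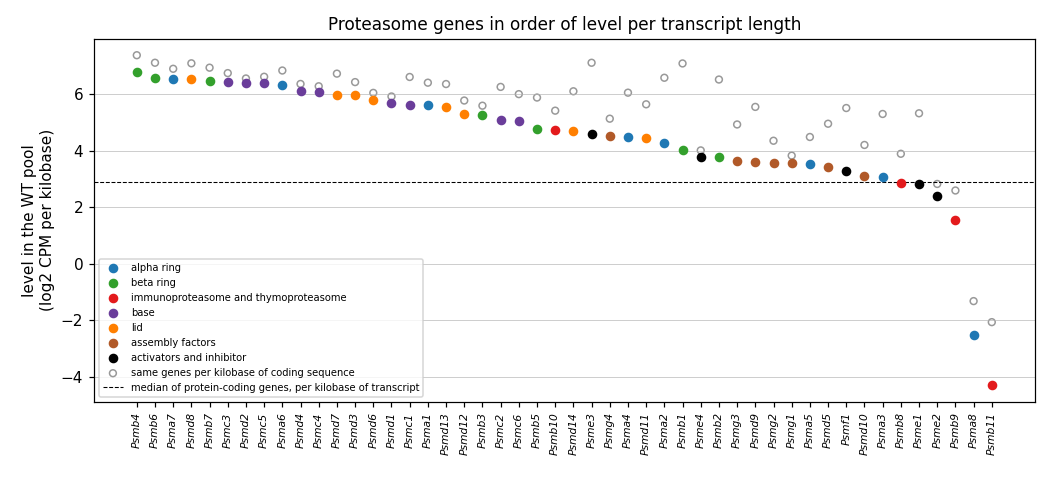
Level of each of the 48 proteasome genes in the WT pool (log2 CPM per kilobase), ordered by the level per kilobase of the canonical transcript (filled points, coloured by class) with the level per kilobase of coding sequence as open circles and the median of protein-coding genes, 2.87, as a dashed line. Psmb4 is highest at 6.79, and Psma8 and Psmb11 stand apart at -2.52 and -4.29.

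Within the core particle, Psmb4, a structural subunit of the beta ring, had the highest level per kilobase of all members by either length, 6.79 by transcript and 7.37 by coding sequence. Psmb2, also a beta subunit, had the lowest of its ring by transcript, 3.77, while by coding sequence the lowest was Psmb3 at 5.58. Psma7 led the alpha ring at 6.54 per kilobase of transcript. Psma8, the counterpart of Psma7 known from the testis, was the lowest of the alpha genes at -2.52. Its log2 CPM was -1.74 in the WT pool and -1.68 in the AdipoRon pool, and the DMSO and Tau tables did not list it. Psmb11, which is known from the cortex of the thymus, had the lowest level of all, -4.29 per kilobase. It was listed at log2 CPM -1.75 in the Tau pool, -2.21 in the WT pool and -2.12 in the AdipoRon pool, but not in the DMSO table. Levels this low rest on few reads, and the 0.46 by which Psmb11 was higher in the Tau pool is a difference between them.

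In the regulatory particle, the ATPase Psmc3 had the highest level per kilobase of the base, 6.43, and the ATPase Psmc6 the lowest, 5.04. Psmd8 led the lid at 6.53, and Psmd11 was lowest at 4.45. The scaffold subunit Psmd2 had the highest log2 CPM of all members before division by length, at 7.92, 7.96, 7.99 and 8.03 in the DMSO, Tau, WT and AdipoRon pools. Among assembly factors, Psmg4, a chaperone of the core particle, was highest per kilobase at 4.51, and Psmd10, a chaperone of the base, lowest at 3.10. Among activators, Psme3, the subunit of the nuclear activator ring, was highest at 4.58, and Psme2 lowest at 2.39.

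**Figure D2:**
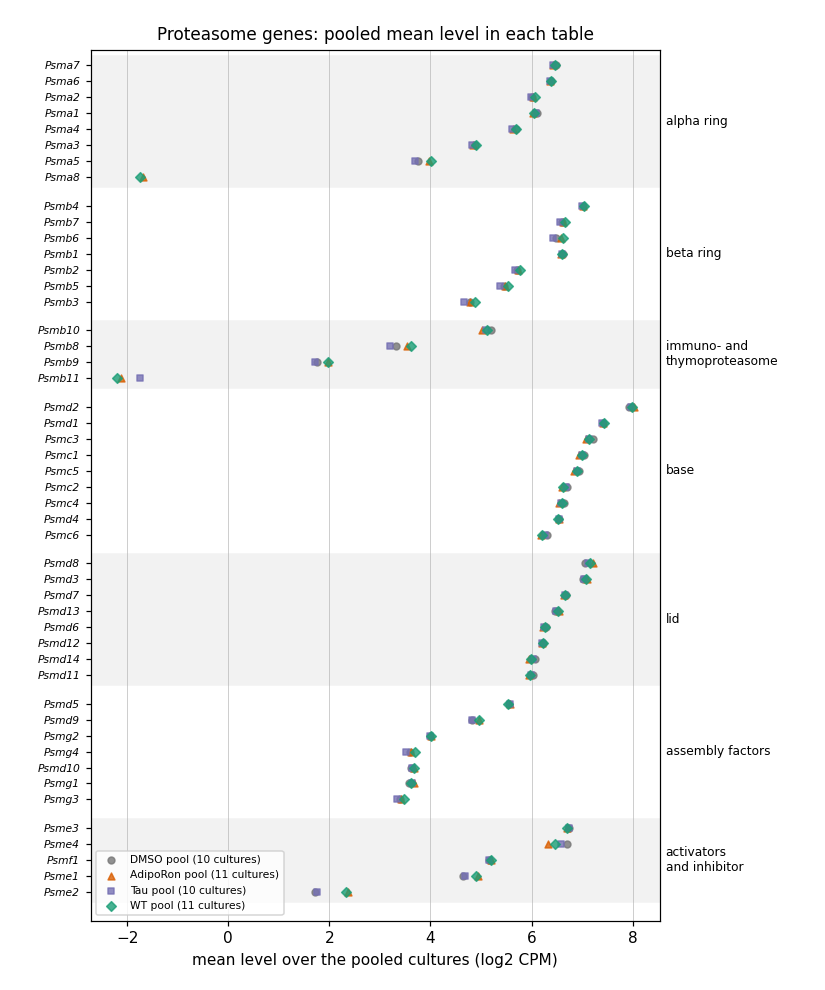
Pooled mean level (log2 CPM, horizontal axis) of each of the 48 proteasome genes in the DMSO, AdipoRon, Tau and WT pools (10, 11, 10 and 11 cultures), grouped by class; the pools overlap in their cultures and carry no error bars. For most genes the 4 symbols nearly coincide, while those of Psme2, Psme4, Psmb8, Psma5 and Psmb11 are spread.

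Most proteasome genes differed by less than the limit between AdipoRon and DMSO. Of the 46 members listed in both pools, 5 were higher in the AdipoRon pool, 1 was lower and 40 lay within 0.2 of each other, with a median difference of 0.01 and a range from -0.37 to 0.67. Across all 19693 genes with both values, 20.5% were higher and 18.3% lower, with a median of 0.02, so the members' shares of 10.9% and 2.17% were below these background shares. Among genes over log2 CPM 4 in both pools, 1 of 37 members was higher and 1 was lower, against 16.1% and 12.1% of all such genes. The higher members were Psme2, Psme1, Psmb9, Psma5 and Psmb8, and the lower one was Psme4. Psma5, Psmb8 and Psmb9 lay at 0.22, just past the limit, and Psmb10 (-0.18) and Psmd8 (0.16) were the next on the other side of it. When the median of the genes over log2 CPM 4, 0.03, was taken off every difference, 2 members were higher, Psme1 and Psme2, and 2 were lower, Psme4 and Psmb10.

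**Figure D3:**
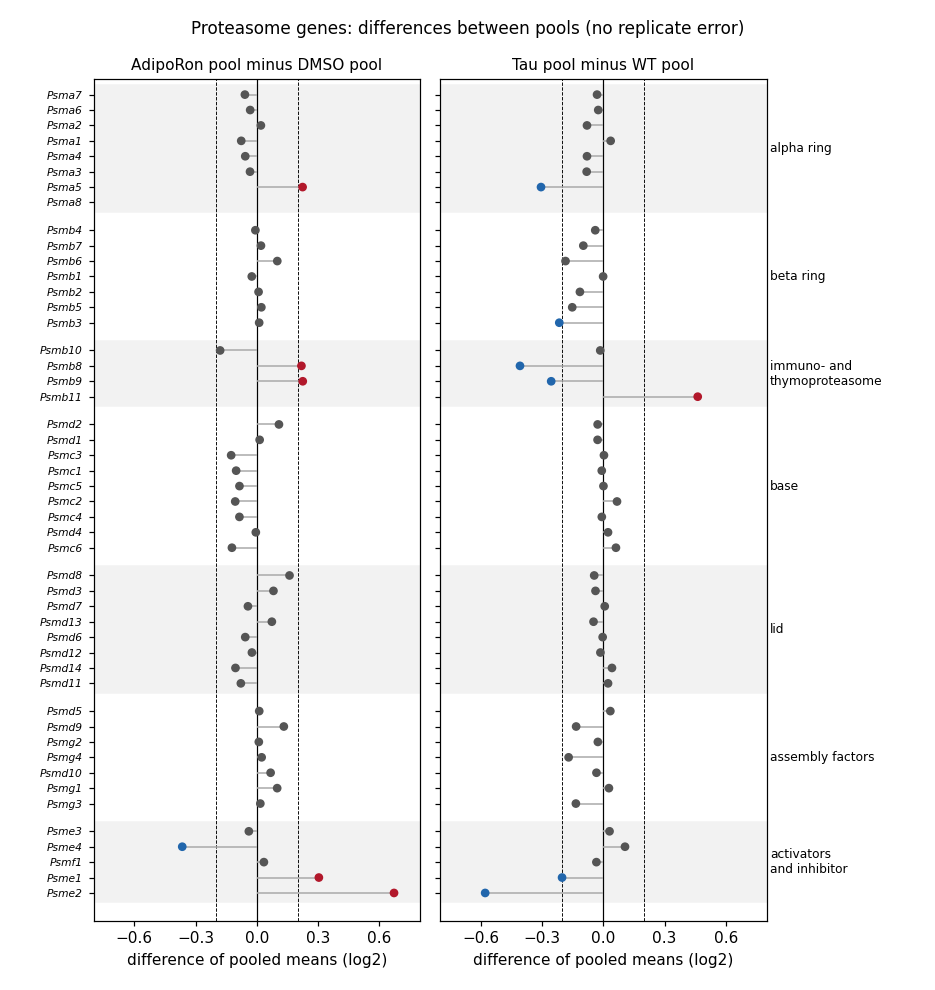
Difference of pooled means (log2) for each proteasome gene, AdipoRon pool minus DMSO pool on the left and Tau pool minus WT pool on the right, with dashed lines at the limit of 0.2 in either direction, red for higher and blue for lower. In the left panel 5 genes are red and 1 is blue, in the right panel 1 is red and 6 are blue, and Psma8 (both panels) and Psmb11 (left panel) have no value.

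Psme2, a subunit of the interferon-inducible activator ring, had the largest difference. Its log2 CPM was 1.71 in the DMSO pool and 2.38 in the AdipoRon pool, so that it was 0.67 higher, and it was 1.76 in the Tau pool and 2.34 in the WT pool, a difference of -0.58. Its partner in the ring, Psme1, was at 4.64 with DMSO and 4.94 with AdipoRon, 0.30 higher, and at 4.69 in the Tau pool and 4.89 in the WT pool, a difference of -0.20. Both subunits thus had their low values in the DMSO and Tau pools and their high values in the WT and AdipoRon pools. The value of Psme2 rests in part on how reads were divided between near-identical sequences. Of the 184 windows of 50 bases along its transcript, 108 were found again inside Psme2b on chromosome 11, a retrogene in the annotation. Psme2b was listed at the higher level, with log2 CPM 4.76, 5.03, 4.86 and 4.94 in the DMSO, AdipoRon, Tau and WT pools. The summed level of Psme2 and Psme2b was 0.32 higher in the AdipoRon pool than in the DMSO pool and Tau minus WT was -0.14, within the limit.

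The other activators did not share this pattern. Psme4, a large single-chain activator that caps the core without ATP, was the member lowest with AdipoRon relative to DMSO, at 6.33 against 6.70, a difference of -0.37, or 22.4% less CPM. In the Tau pool it was at 6.58 and in the WT pool at 6.47. None of its transcript's windows was found elsewhere in the genome. Psme3 lay at 6.74 in the DMSO and Tau pools, 6.71 in the WT pool and 6.70 in the AdipoRon pool. Psmf1, an inhibitor of the core particle, lay between 5.17 and 5.20 in the 4 pools. So the activators held both the highest and the lowest AdipoRon-minus-DMSO difference among the members.

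The immunoproteasome genes were transcribed at low levels compared with the constitutive subunits they replace. In the WT pool, and per kilobase, Psmb8 stood at 26.4% of Psmb5, the chymotrypsin-like subunit, Psmb9 at 3.08% of Psmb6, the caspase-like subunit, and Psmb10 at 30.4% of Psmb7, the trypsin-like subunit. With AdipoRon these shares were 26.2%, 3.15% and 29.2%, and with DMSO 22.8%, 2.89% and 33.5%. In the Tau pool they were 22.1%, 2.94% and 32.2%.

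Psmb8 was at log2 CPM 3.32 in the DMSO pool and 3.54 in the AdipoRon pool, 0.22 higher, and at 3.20 in the Tau pool and 3.61 in the WT pool, a difference of -0.41. Psmb9 was at 1.75 with DMSO and 1.98 with AdipoRon, 0.22 higher, and at 1.73 in Tau and 1.98 in WT, a difference of -0.26. No window of either transcript was found elsewhere in the genome. Psmb10 went the other way with AdipoRon, at 5.20 with DMSO and 5.02 with AdipoRon, and its 5.10 in Tau and 5.12 in WT were nearly level. The 3 immunoproteasome genes did not share a direction with AdipoRon, and Psmb10, whose level was the highest of them, lay within the limit in both. Their counterparts lay within the limit in both as well. Psmb5 was at 5.45 with DMSO and 5.48 with AdipoRon, and at 5.38 in Tau and 5.54 in WT. Psmb6 was at 6.48 and 6.58, and at 6.43 and 6.62. Psmb7 was at 6.60 and 6.62, and at 6.56 and 6.66.

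Of 18 interferon and MHC class I genes, which are often induced together with the immunoproteasome, 7 were higher in the AdipoRon pool and 4 were lower, with a median difference of 0.17. These shares were 38.9% and 22.2%, against the 20.5% and 18.3% of all genes, so that the lower share was near the background. The higher ones were B2m, the light chain of MHC class I, at 0.33, the peptide-loading factor Tapbp at 0.30, the peptide transporter genes Tap2 and Tap1 at 0.23 and 0.22, the MHC class I transactivator Nlrc5 and the antiviral gene Bst2, both at 0.42, and Ifit3 at 0.21. The MHC class I heavy chain genes H2-K1 and H2-D1 lay within the limit, at 0.09 and 0.19. The lower ones were the interferon-stimulated genes Ifit1 at -0.51, Irf7 at -0.35, Gbp3 at -0.34 and Isg15 at -0.32. In the Tau pool none of the 18 was higher and 5 were lower than in the WT pool, with a median of -0.09. The 5 make up 27.8% of the list, against 11.4% of all genes. The summed level of the microglial genes was on the same side as Psme1, Psme2, Psmb8 and Psmb9 in both differences, at 0.28 with AdipoRon and -0.99 in Tau minus WT on the log2 scale, although Cx3cr1, P2ry12 and Csf1r lay at -0.47, -0.22 and -0.12 with AdipoRon. That of the 4 vascular genes was at 0.23 and -0.13, and most of it was Pdgfrb, at 0.20 and -0.08. The part of either cell type in the differences was not tested.

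**Figure D4:**
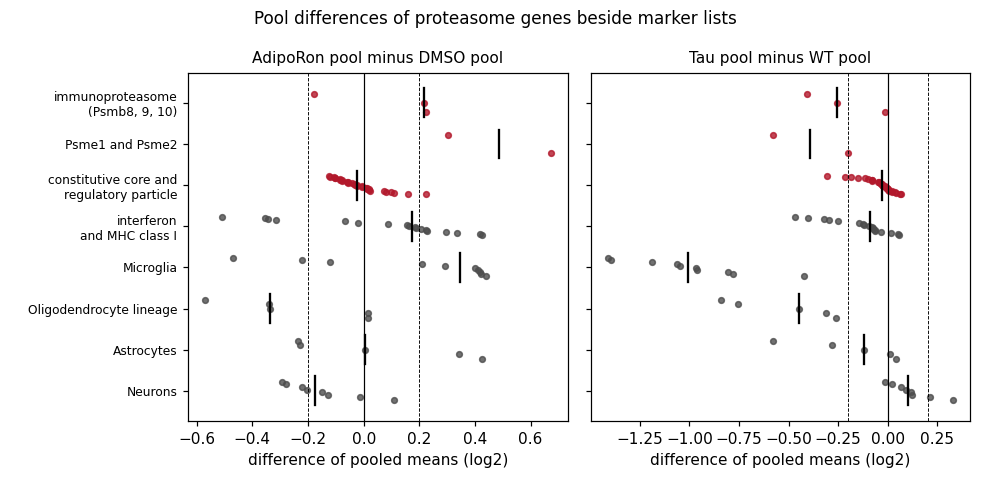
Differences of pooled means (log2, horizontal axis) for single genes as points, AdipoRon minus DMSO on the left and Tau minus WT on the right, with a black bar at the median of each row; proteasome genes are red, the other lists dark grey, and dashed lines mark 0.2 in either direction. The 10 microglial genes lie between -1.41 and -0.42 in the right panel, while the constitutive core and regulatory particle subunits cluster at 0 in both panels.

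Without Psma8, the constitutive core and regulatory particle comprise 31 genes, with log2 CPM from 4.01 to 7.99 in the WT pool, and 30 of them lay within 0.2 between AdipoRon and DMSO and 29 between Tau and WT. Of all genes over log2 CPM 4, 6801 of 9471 and 8775 of 9599 lay within that limit, so that the count between Tau and WT was near the background. Within the narrower limit of 0.1 lay 23 and 26 of the 31 subunits, and the share of all genes within 0.1 was not worked out. With AdipoRon, 7 of the 9 base genes were below 0, with a class median of -0.09 and a lowest value of -0.13 in Psmc3, while its highest was Psmd2 at 0.11. The base ATPases Psmc1, Psmc2, Psmc3, Psmc4, Psmc5 and Psmc6 were all on the lower side, and the non-ATPase subunits Psmd1, Psmd2 and Psmd4 at 0.01, 0.11 and -0.01. The lid ran from -0.10 in Psmd14, its deubiquitinase, to 0.16 in Psmd8, with a median of -0.03. The class medians of the alpha and beta rings were -0.03 and 0.01. The 7 assembly factors were all above 0 with a median of 0.02, and the largest difference among them was 0.13 in Psmd9, a chaperone of the base. Of all genes, 55.0% lay above 0 and 45.0% below, with a median of 0.02, near that of the assembly factors. Over log2 CPM 4 these shares were 57.9% and 42.1%, with a median of 0.03.

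Between the genotypes the members leaned to the lower side in Tau. Of the 47 members with both values, 1 was higher (Psmb11) and 6 were lower in the Tau pool, against background shares of 15.8% higher and 11.4% lower among 19890 genes. The lower share among the members, 12.8%, was close to the background. The median over the members was -0.03 and over all genes 0.00, and 33 of the 47 members lay below 0, or 70.2%, against 49.3% of all genes. Among genes over log2 CPM 4, 67.6% of 37 members and 56.6% of all genes lay below 0. The lower members were Psme2, Psmb8, Psma5, Psmb9, Psmb3 and Psme1, and Psmb6 at -0.18 was the next. All 7 beta ring genes lay below 0, with a class median of -0.11, whereas the base and the lid had medians of 0.00 and -0.01 and no gene past 0.07 in either direction. The largest positive differences, leaving out Psmb11, were Psme4 at 0.11, Psmc2 at 0.07 and Psmc6 at 0.06.

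Psma5, an alpha subunit, was at 3.75 with DMSO and 3.98 with AdipoRon, 0.22 higher, and at 3.70 in Tau and 4.01 in WT, a difference of -0.30. Psmb3, a structural beta subunit, was at 4.78 with DMSO and 4.79 with AdipoRon, and at 4.67 in Tau and 4.88 in WT, a difference of -0.22. Both genes share much of their sequence with other loci. Of the 50-base windows of Psmb3, 63.4% were found elsewhere in the genome, most of them in the lncRNA gene Gm59776, and of Psma5 50.2%, most often in the pseudogene Psma5-ps. Psmb5 also had 50.2%, with Gm3375 as the pseudogene most often hit, and lay at -0.15 between Tau and WT. Of the 6 members lower in the Tau pool, Psme2, Psma5 and Psmb3 thus had over 50% of their windows elsewhere, and among the 42 members with at most 25% of windows elsewhere, 3 were lower and 1 was higher. How the authors' counting divided reads between such copies was not tested.

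**Figure D5:**
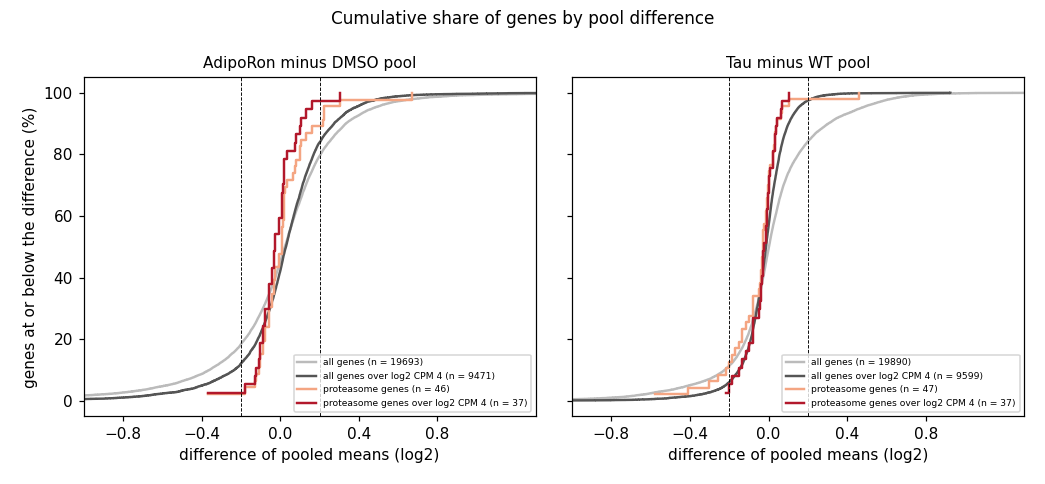
Cumulative share of genes (%, vertical axis) at or below each difference of pooled means (log2, horizontal axis), for all genes (light grey), all genes over log2 CPM 4 (dark grey), proteasome genes (orange) and proteasome genes over log2 CPM 4 (red), with dashed lines at 0.2 in either direction; differences beyond the axis are not drawn. The curves of the proteasome genes rise more steeply than those of all genes between AdipoRon and DMSO, where 40 of 46 lie between the dashed lines, and nearly follow the curve of genes over log2 CPM 4 between Tau and WT.

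The symbol rule leaves out further partners of the proteasome. Of 26 such genes, 25 were listed in all tables. With AdipoRon 1 was higher, Psme2b, and 1 was lower, Zfand2a at -0.23, a stress-induced gene whose product binds the proteasome. In the Tau pool none was higher and 2 were lower, Fbxo7 at -0.42, a ubiquitin ligase component that binds the core's inhibitor Psmf1, and Sem1 at -0.26, the smallest lid subunit. Of the 25, 4% were higher and 4% lower with AdipoRon, below the 20.5% and 18.3% of all genes. The 8% lower in Tau compare with 11.4% of all genes, of which 15.8% were higher. The transcription factor Nfe2l1, which induces proteasome genes when the proteasome is impaired, was at 9.47 with DMSO and 9.33 with AdipoRon, and at 9.43 in Tau and 9.37 in WT. Pomp, the chaperone that matures the core particle, was at 6.46 with DMSO, 6.35 with AdipoRon, 6.34 in Tau and 6.46 in WT. All these values lay within the limit except the 4 called.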

How the data were processed

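RNA from 21 primary neuron cultures was sequenced as poly(A) libraries. According to the methods, the authors trimmed reads, aligned them with STAR to mm10, quantified them with RSEM and fitted a generalized linear model with edgeR. The submitters' notes name the same aligner, tool and build, while the paper's results name GRCm39 and the tables are named after Rsubread. The deposited tables hold, per gene, the mean level in log2 CPM (the authors' average over the cultures of both groups in that table), which is the only column used here. The other deposited columns, a fold change, a likelihood ratio, a p-value, a false discovery rate and a direction label for the authors' own comparisons, were not used. No value of a single culture entered this work. The depth of each single library is therefore unknown, although the paper states an approximate number of reads per sample. No SD, interval or test could be computed.

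Groups came from the sample titles. The text names the immunoproteasome genes and their counterparts, the activators and Psmf1, the highest and lowest gene per length of each class, and the 3 largest differences in each direction among members over log2 CPM 0 in every table; other genes were named after their values were seen. Members and lists were chosen with earlier results of these data known. Lengths, neighbouring copies and 50-base windows (step 5) came from GENCODE vM39 and GRCm39, and promoter sequences and neighbours from RefSeq (GRCm38.p6). Computations used Python 3.11.15, numpy 2.4.6 and pandas 2.3.3, and were tested on simulated pools. Alternatives were another limit, centring, filters on low or shared genes, and coding length.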

Additional observations from a re-analysis of the deposited data

How the results depend on the processing

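The number of members higher in the AdipoRon pool than in the DMSO pool, 5 at the limit of 0.2, was 8 at a limit of 0.1, 2 at 0.3, 2 after centring on the median of genes over log2 CPM 4, and 1 among members over log2 CPM 4. The number lower, 1, was 7 at a limit of 0.1 and 2 after centring. The number higher in the Tau pool than in the WT pool, 1, was 2 at a limit of 0.1 and 0 both among members over log2 CPM 4 and among genes listed in all 4 tables, since Psmb11 is then left out. The number lower in the Tau pool, 6, was 12 at a limit of 0.1, 3 at 0.3 and 2 among members over log2 CPM 4. Shares of all genes at limits of 0.1 and 0.3 were not worked out, so those counts stand without a background. Keeping only members with at most 25% of windows elsewhere, an alternative chosen after seeing the data, gave 3 higher with AdipoRon and 3 lower in Tau. The median AdipoRon-minus-DMSO difference of the immunoproteasome genes, 0.22, became -0.18 among members over log2 CPM 4, where Psmb10 alone is left. The members' median level per kilobase, 4.71, was 6.01 by coding length, and the distance from the highest to the lowest member, 11.08, was 9.43 by coding length and 5.46 in the DMSO table, which lists neither Psma8 nor Psmb11. Of the other alternatives for the main results, 42 stayed within the tolerance, as did 38 of those for single genes and classes. Another 5 of the latter moved and 1 was reversed, the immunoproteasome median above. With AdipoRon, that class was at 0.09 by its mean, and Psme2 with Psme2b at 0.32 instead of 0.67. In Tau minus WT, the same class had a median of -0.14, and -0.01 over log2 CPM 4. The activators and inhibitor went from -0.03 to -0.14 by their mean, and Psme2 from -0.58 to -0.14 with Psme2b. No paired analysis was possible because the tables give no value per culture, and for the same reason no replicate was left out. Depth per culture is unknown, so the error of a pool difference cannot be given.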

Other observations

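A single difference between 2 of the 4 groups can be recovered from the pools, and it was worked out only after the data had been seen. The Tau and DMSO pools share the Tau DMSO cultures and hold 5 cultures of each group, so doubling the difference of their means in CPM gives Tau AdipoRon minus WT DMSO, apart from the separate normalization of the tables. Expressed as a percentage of the level in the DMSO pool, 41 of 46 proteasome genes lay within 10% of 0, or 89.1%, against 44.8% of all 19614 genes. Among genes over log2 CPM 4 these shares were 91.9% of 37 members and 57.4% of all. The members' median was -4.12%, with 35 of 46 below 0, and that of all genes 1.07%, with 9235 of 19614 below 0. Among genes over log2 CPM 4 the medians were -4.21% for members and -0.09% for all. Below 0 there lay 29 of 37 members and 4798 of 9540 genes. The lowest members were Psme4 at -16.4%, Psmb8 at -16.0%, Psmb3 at -15.2%, Psmb10 at -13.3% and Psmg4 at -11.1%, and the highest was Psmg1, a chaperone of the core particle, at 9.33%. Psme1 and Psme2 stood at 7.22% and 7.47%. None of these values carries a replicate error.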
